A study of Gallus gallus with 4 samples.

Results

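The 10 genes described here are TNMD, CHODL, ECM2, NREP, CALB1, CALB2, GPX3, HAPLN1, LUZP2 and CRISPLD1, out of 16878 genes counted in embryonic chicken feathers. They were selected on their measured levels (CPM, UMI counts scaled to a fixed total) and shares of barcodes in fibroblast barcodes of feathers plucked from the skin, against those of feathers left in a piece of skin, at day 12. The differences between these libraries are therefore given as descriptions, with no test. A droplet barcode (about 1 cell or nucleus) was taken as a fibroblast barcode when it held at least 5 UMIs of the collagen genes COL1A1 and COL1A2 together and at most 2 UMIs of the epithelial genes GATA3 and KRT5 together. A UMI, or unique molecular identifier, marks 1 captured transcript molecule. Of the 6208 barcodes kept from plucked feathers at day 12, 853 met the rule. The counts were 452 of 19457 for day 13, 367 of 19435 for day 14, and 2298 of 5411 for the feathers in skin.

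The embryos were white leghorn chickens, the labels name no treatment, and the tissue came from the midline of the back. Plucked feathers were taken at 12, 13 and 14 days of incubation (Hamburger and Hamilton stages 38, 39 and 40). The feathers in skin were taken at 12 days (stage 38), as a strip of skin with the feathers in place, so that library also holds feather tissue. Its label names feather and epidermis, and 42.5% of its kept barcodes were fibroblast barcodes. Cells were freed with Pronase at day 12, while days 13 and 14 were homogenised into nuclei, so age, cells against nuclei and the software version cannot be told apart between day 12 and the later days. Each group was 1 library, no value below has a replicate, and the number of embryos behind a library is not given in the sources used here.

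A growing feather is an epithelial tube around a mesenchymal core, the pulp, which carries vessels and lies above the dermal papilla at the follicle base. The skin around it holds a dermis of collagen-producing fibroblasts. Hyaluronan, a long sugar polymer, is held in loose matrix by proteoglycans and link proteins, while dense dermis and tendon are rich in fibrillar collagen. The sample labels name neither pulp nor dermal mesenchyme. The 10 genes did not part cleanly into those 2 groups: LUZP2 showed no positive correlation with the other genes higher in plucked feathers in the plucked day 12 library, and ECM2 in plucked feathers lay in barcodes with vessel-wall markers.

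The deposited libraries held 56504070 to 72385294 UMIs, and the median fibroblast barcode held 4607 UMIs in plucked day 12, 2908 at day 13, 3302 at day 14 and 6314.5 in skin. All 18 fibroblast markers were found in every library and summed to 20756, 11108, 15284 and 26255 CPM in the same order. Many fibroblast barcodes also held markers of other cell types. At least 3 UMIs of epithelial markers were found in 44.8%, 67.7%, 29.2% and 25.1% of them. At least 3 UMIs summed over endothelial, mural, leukocyte, melanocyte, glial, neuron and skeletal muscle markers were found in 73.3%, 73.0%, 78.7% and 67.0% of fibroblast barcodes. A setting used below leaves these out as barcodes with other cell types' markers. It does not count epithelial, erythroid or cartilage markers. It kept 228 barcodes in plucked day 12, 122 at day 13, 78 at day 14 and 758 in skin. Globin took 0.109% of the UMIs of fibroblast barcodes in plucked day 12, 25.7% at day 13, 14.9% at day 14 and 0.134% in skin, and the CPM total leaves out globin and mitochondrial UMIs. At most 0.777% of a library's barcodes were shared with another library. The W-linked gene HINTW, carried by female birds, was found in 845 of 853 fibroblast barcodes of plucked day 12, in 399 of 452 at day 13 and in 326 of 367 at day 14, against 1 of 2298 in skin. The sex of the embryos and the plucking of the feathers therefore cannot be told apart at day 12. The threshold on collagen was sharp at day 12 but not at days 13 and 14. In plucked day 12, 11 barcodes held exactly 5 collagen UMIs and 8 held 4. These numbers were 156 and 343 at day 13, 42 and 89 at day 14, and 21 and 31 in skin. The epithelial limit left 42 barcodes just inside at 2 UMIs and 7 just outside at 3 in plucked day 12, 42 and 25 at day 13, 17 and 10 at day 14, and 75 and 43 in skin.

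Of the 10 genes, 6 were at least 2-fold higher in plucked feathers than in skin at day 12, 3 were at least 2-fold lower, and ECM2 lay between. Among all 3666 genes at 50 CPM or more in either library, 19.7% were at least 2-fold higher and 3.38% at least 2-fold lower, or 723 and 124 genes. With TMM scaling (trimmed mean of M values) these numbers were 253 and 506, because the median log2 ratio of all genes moved to -0.33 from 0.34. The direction of none of the 10 genes changed with that scaling. Since the rule used this contrast, nothing is read from the count of members. Ratios are log2 of CPM + 10, and their intervals join the outer ends of exact Poisson 95% intervals, which cover counting error only.

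**Figure D1:**
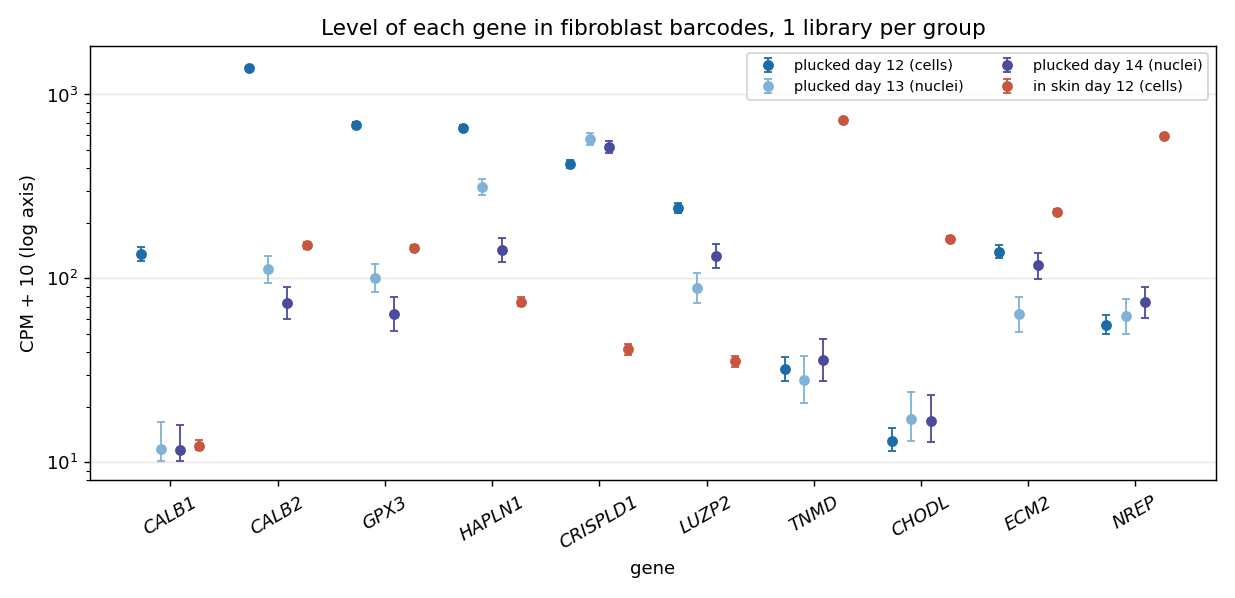
Level of each gene in fibroblast barcodes, as CPM + 10 on a log axis, in 1 library per group (points; bars are exact Poisson 95% intervals). The 6 genes on the left stand highest in a plucked library, with CRISPLD1 highest at day 13, and the 4 on the right stand highest in skin.

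Of the 4 genes higher in skin, TNMD encodes tenomodulin, a membrane glycoprotein known from tendon and other dense connective tissue. It was at 22.1 CPM (interval 17.7 to 27.2) in plucked day 12, 18.0 CPM at day 13, 25.8 CPM at day 14 and 714 CPM (700 to 728) in skin. Its 3 plucked libraries lay together and far below the skin library. For this gene and those below, days 13 and 14 also differ from skin in age, nuclei against cells and software version. Their levels are therefore no replicate of the day 12 difference. The log2 ratio of plucked over skin at day 12 was -4.49 (-4.73 to -4.25) and ran from -5.42 to -3.95 over 15 other settings. TNMD had a UMI in 33 of 853 plucked barcodes and in 1195 of 2298 skin barcodes. Its mean among the barcodes that held it was 2.67 UMIs in plucked feathers and 8.52 UMIs in skin, so both the share of barcodes and the level per positive barcode were lower in plucked feathers.

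CHODL encodes chondrolectin, a membrane protein with a C-type lectin domain. It was at 3.01 CPM in plucked day 12, from 12 UMIs in 8 barcodes, 7.19 CPM at day 13, 6.67 CPM at day 14 and 153 CPM in skin, from 2184 UMIs in 624 barcodes. The day 12 log2 ratio was -3.65 (-3.88 to -3.36), with a range of -5.26 to -3.21 over the settings. The lower end of that range belongs to a pseudocount of 1 CPM. The plucked libraries again did not reach the skin library, and their few UMIs set no order among the 3 days.

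NREP encodes a small intracellular protein, also called P311, known in mammals for raising the translation of TGF-beta. It was at 46.0 CPM (39.5 to 53.1) in plucked day 12, 52.1 CPM at day 13, 64.2 CPM at day 14 and 585 CPM (573 to 598) in skin. The day 12 log2 ratio was -3.41 (-3.62 to -3.21), with a range of -3.96 to -3.32. NREP was also found outside fibroblasts. With every barcode thinned to 1000 UMIs, 2.74% of fibroblast barcodes (1.74 to 4.08) had an NREP UMI in plucked day 12 and 2.42% of epithelial barcodes did, which lies inside the interval of the fibroblast share. In skin the thinned shares were 31.4% in fibroblast barcodes and 10.1% in epithelial barcodes. NREP is on the Z chromosome, where the median log2 ratio of 142 genes was -0.16 against 0.35 on the other chromosomes. Its ratio relative to the Z-linked median was -3.25.

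ECM2 encodes an extracellular matrix protein of the leucine-rich family. It was at 129 CPM (118 to 141) in plucked day 12, 53.9 CPM at day 13, 108 CPM at day 14 and 220 CPM (213 to 228) in skin. Its log2 ratio at day 12 was -0.72 (-0.89 to -0.56), under a 2-fold difference. The value turned on barcodes with mural markers, the genes of smooth muscle and pericytes. In the 157 plucked fibroblast barcodes with at least 3 mural UMIs ECM2 stood at 489 CPM, and in the other 696 at 13.9 CPM. In skin the pattern was the opposite, with 99.9 CPM in 691 barcodes with mural markers and 274 CPM in the other 1607. Without the mural-marked barcodes the log2 ratio was -3.57, close to those of TNMD, CHODL and NREP. That setting was chosen after the data had been seen.

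**Figure D2:**
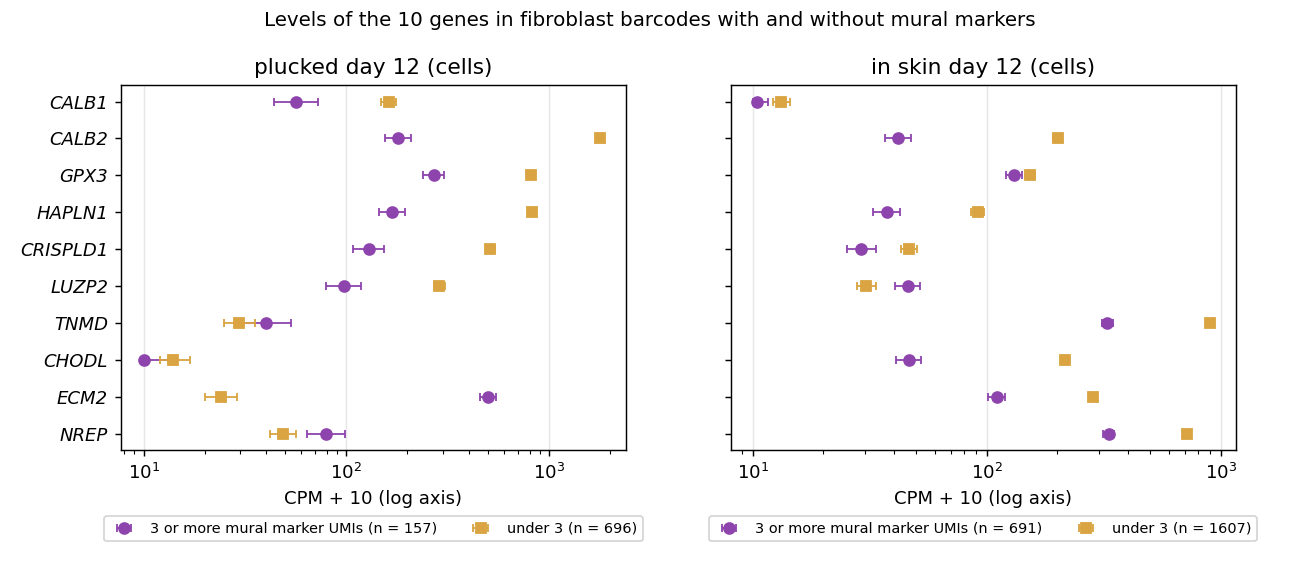
CPM + 10 (log axis) of the 10 genes in fibroblast barcodes with at least 3 mural marker UMIs (circles) and with fewer (squares), in plucked day 12 (left) and in skin (right); bars are Poisson 95% intervals. ECM2 is high in the mural-marked barcodes of plucked feathers, at 489 against 13.9 CPM, and low in those of skin, at 99.9 against 274 CPM.

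The mural markers themselves differed in kind between the libraries. Of 8 mural genes past the filter, 3 were at least 2-fold higher in plucked feathers and 4 at least 2-fold lower. The higher ones were ANGPT2, a vessel growth factor, at 211 CPM in plucked feathers and 28.2 CPM in skin, and the channel genes ABCC9 (log2 ratio 1.98) and KCNJ8 (1.35). The lower ones were the contractile genes ACTG2, MYH11, TAGLN and CNN1, with log2 ratios of -3.48, -2.98, -2.76 and -2.34. Plucked barcodes with at least 2 ECM2 UMIs (97 barcodes) held ANGPT2 at 1106 CPM and ACTA2 at 2060 CPM, while those without ECM2 (725 barcodes) held 4.11 and 37.9 CPM. The 18 plucked barcodes with at least 2 TNMD UMIs held the smooth muscle myosin MYH11 at 1931 CPM and POSTN, a matrix protein of dermis, at 3305 CPM. The 820 barcodes without TNMD held 22.7 CPM of MYH11 and 232 CPM of POSTN. ECM2 was found in 13 of the 33 plucked TNMD barcodes, where 7.76 were expected from detection among barcodes of like depth (10 depth classes).

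The genes higher in plucked feathers include 2 EF-hand calcium-binding proteins. CALB2 encodes calretinin, a calcium buffer best known from neurons. It was at 1387 CPM (1351 to 1424) in plucked day 12, 102 CPM at day 13, 63.3 CPM at day 14 and 141 CPM (135 to 148) in skin. Plucked over skin, its log2 ratio was 3.21 (3.11 to 3.30), with a range of 2.61 to 4.22, the higher end at a mitochondrial limit of 5%. A UMI was found in 250 of 853 plucked barcodes and in 131 of 2298 skin barcodes. The UMIs were concentrated in few barcodes: the top 5% of barcodes held 63.9% of them in plucked day 12 and 99.2% in skin. CALB2 was also at 3.62 CPM in the 42 endothelial barcodes of plucked day 12 and at 361 CPM in the 40 of skin, where 2.56% of the thinned barcodes had a UMI.

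CALB1 encodes calbindin, the vitamin D-regulated calcium buffer first known from chick intestine. It was at 126 CPM (115 to 137) in plucked day 12, 1.80 CPM at day 13, 1.67 CPM at day 14 and 2.31 CPM in skin. Plucked day 12 alone stood apart, and its 501 UMIs came from 46 barcodes, 1 of which held 82. Its log2 ratio at day 12 was 3.46 (3.24 to 3.67), with a range of 3.12 to 5.26, the higher end at a pseudocount of 1 CPM. At day 13, 0 of the thinned barcodes held a CALB1 UMI, which allows a share of up to 0.783%. Of 7 EF-hand genes past the filter, CALB1 and CALB2 were the 2 at least 2-fold higher, and none was 2-fold lower. S100A6, another gene of the list, had a log2 ratio of 0.41.

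HAPLN1 encodes link protein, which fastens proteoglycans such as versican to hyaluronan. It was at 650 CPM (626 to 676) in plucked day 12, 304 CPM (272 to 338) at day 13, 133 CPM (113 to 156) at day 14 and 64.6 CPM (60.5 to 68.9) in skin. All 3 plucked libraries stood above skin, and their levels were lower at each later day. Plucked over skin, its log2 ratio was 3.15 (3.01 to 3.28), with a range of 2.57 to 4.19, the higher end with barcodes holding other cell types' markers left out. A UMI was found in 431 of 853 plucked barcodes and in 206 of 2298 skin barcodes. Like NREP it is Z-linked, and relative to the Z-linked median its ratio was 3.31. Of the hyaluronan matrix list, 3 genes passed the filter, 2 were at least 2-fold higher and none 2-fold lower. The other one higher was VCAN, versican, at 2232 CPM in plucked feathers and 347 CPM in skin, and CD44, a hyaluronan receptor, had a log2 ratio of 0.91.

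GPX3 encodes the secreted glutathione peroxidase, a selenoprotein that reduces hydrogen peroxide. It was at 674 CPM (649 to 700) in plucked day 12, 90.8 CPM at day 13, 54.2 CPM at day 14 and 136 CPM (130 to 142) in skin. Its log2 ratio at day 12 was 2.23 (2.11 to 2.34), with a range of 1.63 to 2.53. GPX3 was spread over many skin barcodes at a low level: 45.5% of them held a UMI, against 51.9% in plucked feathers, with a mean of 1.85 UMIs in skin barcodes that held it and 6.06 in plucked ones. At 1000 UMIs the shares were 26.1% in plucked day 12 and 10.8% in skin. At day 13 the thinned share was 7.31% in fibroblast barcodes (4.91 to 10.4) and 6.83% in erythroid barcodes. Of 12 peroxide and selenoprotein genes past the filter, GPX3 was the 1 at least 2-fold higher, and GPX8 the 1 at least 2-fold lower, at -1.04 on the log2 scale. GPX1 and CAT, catalase, had log2 ratios of -0.04 and 0.66.

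CRISPLD1 encodes a secreted protein with a CAP domain and LCCL domains. It was at 408 CPM (389 to 429) in plucked day 12, 562 CPM (519 to 608) at day 13, 508 CPM (469 to 550) at day 14 and 31.1 CPM (28.2 to 34.1) in skin. Of the 6 genes higher in plucked feathers, it was the 1 with higher levels in nuclei than in plucked cells. Plucked over skin, its log2 ratio was 3.35 (3.18 to 3.52), with a range of 2.81 to 3.93. Its relative CRISPLD2 was at 189 CPM in plucked feathers and 64.3 CPM in skin, a log2 ratio of 1.42.

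LUZP2 encodes a leucine zipper protein whose role in skin is little described. It was at 231 CPM (216 to 247) in plucked day 12, 79.1 CPM at day 13, 123 CPM at day 14 and 25.3 CPM (22.8 to 28.1) in skin. Each plucked library was above skin by more than counting error. Its log2 ratio at day 12 was 2.77 (2.57 to 2.97), with a range of 2.25 to 3.69. It had a UMI in 343 of 853 plucked barcodes and 163 of 2298 skin barcodes, with no more than 12 UMIs in any plucked barcode.

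**Figure D3:**
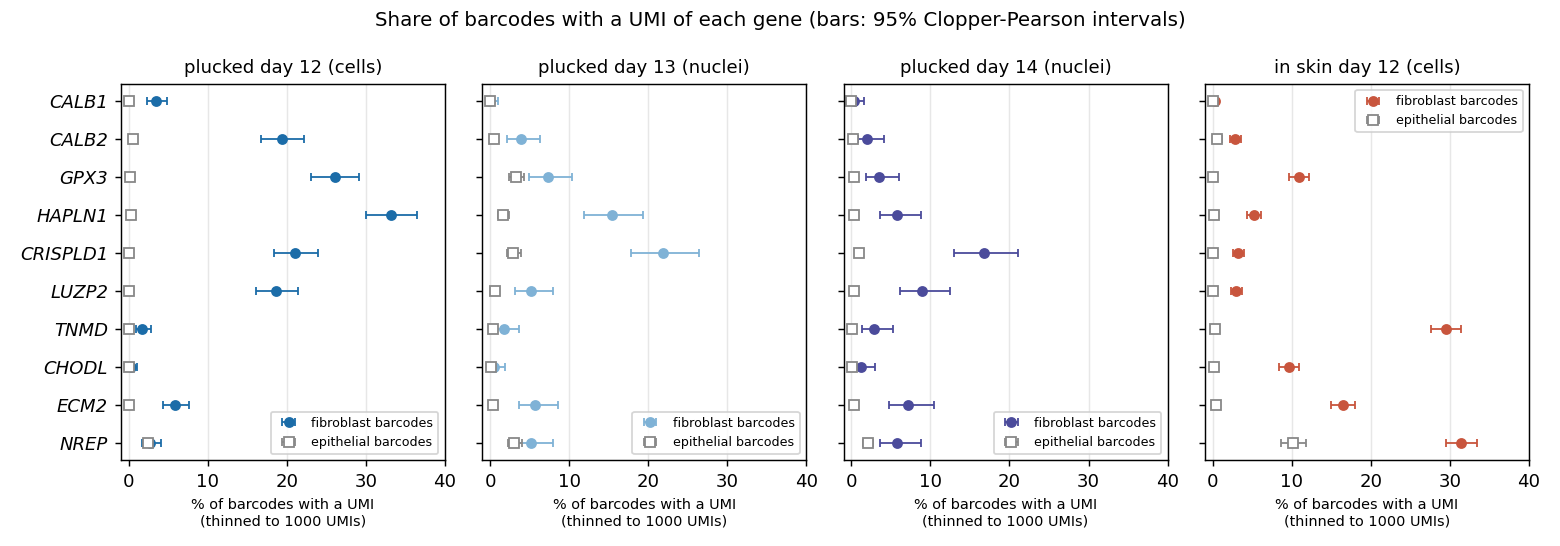
Share of barcodes with a UMI of each gene, each barcode thinned to 1000 UMIs, in fibroblast (filled circles) and epithelial (open squares) barcodes of the 4 libraries; bars are exact Clopper-Pearson 95% intervals. Fibroblast shares exceed epithelial ones for most genes, but NREP in plucked day 12 stands at 2.74% against 2.42%.

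The shares of barcodes followed the levels. The genes were chosen on both in the day 12 contrast, so nothing is read from that match. At 1000 UMIs the share was higher in plucked day 12 than in skin for all 6 genes of higher level, with intervals apart, and lower for all 4 of lower level. HAPLN1 stood at 33.2% in plucked day 12 and 5.16% in skin, and CRISPLD1 at 21.1% and 3.17%. TNMD stood at 1.67% (0.914 to 2.78) in plucked day 12 and 29.4% (27.6 to 31.4) in skin. In epithelial barcodes of the day 12 libraries, 9 of the 10 genes had thinned shares of 0.569% or less. NREP was the exception. Thinning left out 13 plucked fibroblast barcodes and 29 skin ones.

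Among the other genes of the same kinds, the small leucine-rich proteoglycan list had 6 genes past the filter with none 2-fold apart, DCN, decorin, being at 0.77 and OGN at -0.56 on the log2 scale. Of 6 tendon-type genes, 1 was at least 2-fold higher, THBS2 at 1.12, and 3 at least 2-fold lower: TNMD, COL14A1 at -2.73 and COL12A1 at -1.03, both collagens that coat fibrils. Of 17 genes known from the dermal condensate, papilla or pulp, 8 were at least 2-fold higher and 2 lower. HHIP, a hedgehog-binding protein, was at 332 CPM in plucked feathers and 37.0 CPM in skin, and LEF1, a Wnt pathway transcription factor, at 352 and 64.5 CPM. The 2 lower ones were the retinoic acid-binding protein gene CRABP-I (log2 ratio -3.68) and PDGFA (-1.02). Of 11 genes of TGF-beta signalling, 3 were at least 2-fold higher, among them TGFBR3 at 1.55, and 3 lower, NREP with its list partners POSTN at -3.00 and TGFBI at -2.26. The median log2 ratio was 0.87 in the condensate list, 0.87 in the TGF-beta list, -0.54 in the tendon-type list and -0.04 in the proteoglycan list, beside 0.34 over all genes. Over all genes 19.7% were at least 2-fold higher and 3.38% at least 2-fold lower. The tendon-type and TGF-beta lists hold members, TNMD and NREP, as do the EF-hand, hyaluronan and peroxide lists. Nothing is therefore read from the counts or medians of these lists. RefSeq neighbours did not share the differences where they could be read: TSPAN6, next to TNMD, had a log2 ratio of 0.54, and DECR1, next to CALB1, 0.08.

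Coexpression was measured as Pearson's r of log counts per 10000 across the fibroblast barcodes of 1 library, given as a description because barcodes share a library and vary in depth. In plucked day 12, 10 of the 45 pairs of members had r of at least 0.2, against 0.375% of all gene pairs at 50 CPM or more. In skin it was 8 of 45, against 0.523%. The members were chosen together for parting these libraries, and some lay under 50 CPM, so nothing is read from these counts. Between the 6 genes higher in plucked feathers and the 4 higher in skin, r was below 0 for 23 of 24 pairs in plucked day 12, 21 at day 13, 17 at day 14 and 22 in skin. Of all gene pairs at 50 CPM or more, r was below 0 for 42.3%, 36.8%, 39.5% and 37.9% in the same order. Under the main fibroblast rule none of the 24 pairs of members reached 0.2 in any of the 4 libraries. With barcodes holding other cell types' markers left out, TNMD and GPX3 had an r of 0.22 in skin. At day 13 that setting gave 0.208 for TNMD with LUZP2, 0.205 for ECM2 with LUZP2 and 0.205 for NREP with CRISPLD1. TNMD with CALB1 at day 14, over 2 CALB1 barcodes, had 0.24 with no GATA3 or KRT5 UMI and 0.28 with at least 10 collagen UMIs. Some members lay under 50 CPM, such as CHODL at 3.01 CPM in plucked day 12, where its r with HAPLN1 was -0.004. The 2 sets were defined by opposite levels at day 12, so nothing is read from the counts of pairs below 0.

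**Figure D4:**
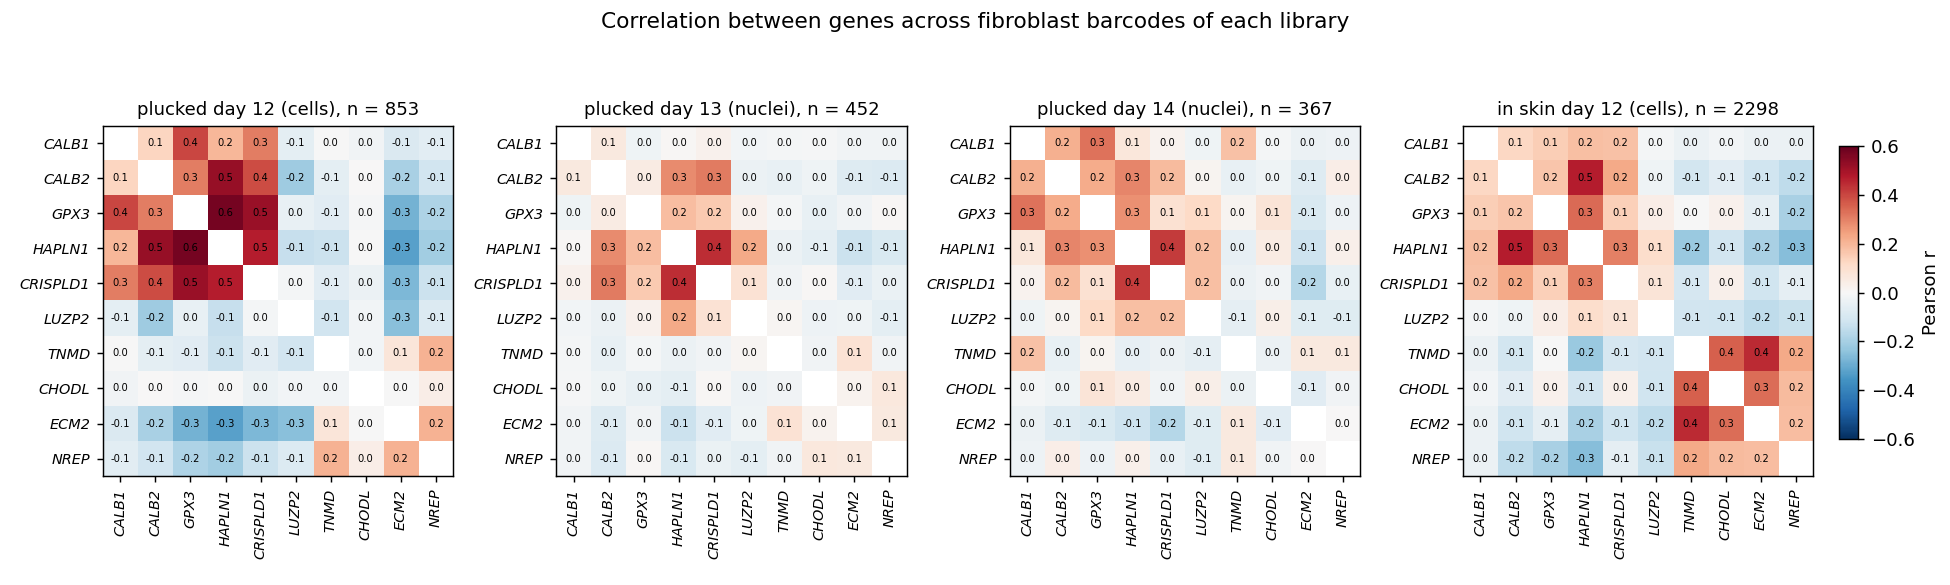
Pearson's r between the 10 genes across fibroblast barcodes (n above each panel) of plucked day 12, day 13, day 14 and skin; red is positive, blue negative. A block of CALB1, CALB2, GPX3, HAPLN1 and CRISPLD1 is strongest in plucked day 12, and a block of TNMD, CHODL and ECM2 is strongest in skin. NREP with ECM2 has an r of 0.21 in plucked day 12 and 0.19 in skin, and NREP with TNMD 0.21 and 0.23.

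In plucked day 12, HAPLN1, GPX3, CALB2, CRISPLD1 and CALB1 went together. The highest r was 0.57, between HAPLN1 and GPX3, followed by 0.52 for HAPLN1 and CALB2, 0.52 for GPX3 and CRISPLD1, and 0.47 for HAPLN1 and CRISPLD1. HAPLN1 was found in 221 of the 250 CALB2 barcodes, where 147 were expected. CALB1 was found in few barcodes, most of which held the others. All 46 CALB1 barcodes held GPX3, 43 held HAPLN1, 41 held CRISPLD1 and 30 held CALB2, and its r with CALB2, 0.13, was the lowest among the 5 genes. The 40 barcodes with at least 2 CALB1 UMIs had GPX3 at 3258 CPM, against 504 CPM in the 807 without CALB1. None of the 46 held ECM2, where 9.29 were expected.

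LUZP2 was not positively correlated with that set in plucked cells. Its r was -0.21 with CALB2 and -0.14 with HAPLN1, and between -0.06 and -0.01 with CALB1, GPX3 and CRISPLD1. It was found in 73 of the 250 CALB2 barcodes, where 89.7 were expected, and in 172 of the HAPLN1 barcodes, where 165 were expected. With GPX3, CRISPLD1 and CALB1 it was found in 186, 172 and 18 barcodes, where 173, 150 and 15.8 were expected. By these unthinned counts CALB2 alone was below expectation. In thinned barcodes the odds ratio of finding LUZP2 with the other gene was 0.39 for CALB2, 0.59 for HAPLN1 and 0.65 for GPX3. It was 0.97 for CALB1 and 1.10 for CRISPLD1. Without mural-marked barcodes the r of LUZP2 was -0.31 with CALB2, -0.27 with HAPLN1 and -0.15 with GPX3. LUZP2 then had an r of -0.12 with CRISPLD1 and -0.09 with CALB1. Among the 5 genes most like it over the 853 barcodes were F10, a clotting factor gene (r 0.41), NR3C2, the mineralocorticoid receptor (0.40), BMP4, a signalling ligand of skin appendages (0.39), and JAM3 (0.37). In barcodes with at least 2 LUZP2 UMIs (216 barcodes) BMP4 stood at 571 CPM, against 170 CPM in the 510 without LUZP2, and CALB2 stood at 535 CPM against 1835 CPM. In the nuclei LUZP2 had an r of 0.22 with HAPLN1 at day 13 and 0.18 at day 14, and in skin 0.10, so its negative r with HAPLN1 was seen in plucked day 12 alone.

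The genes most like the others in plucked day 12 recurred among the members. ALDH1A3, a retinoic acid-synthesising enzyme, was among the 5 nearest genes of HAPLN1 (r 0.67), GPX3 (0.61) and CRISPLD1 (0.49), and WNT11, a Wnt ligand, among those of HAPLN1 (0.65) and GPX3 (0.54). HHIP had an r of 0.63 with HAPLN1. ITIH5, QDPR and FBLN1, a gene of the fibroblast list, were among those of CALB2, with r of 0.70, 0.64 and 0.59. Of these, QDPR with CALB2 had an r of 0.17 at day 13, 0.31 at day 14 and 0.30 in skin. For CALB1 the nearest gene was CATHB1, a cathelicidin (0.52).

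In skin, TNMD, CHODL and ECM2 went together, with NREP less firmly. The r was 0.45 for TNMD and ECM2, 0.36 for TNMD and CHODL, 0.33 for CHODL and ECM2, 0.23 for TNMD and NREP, and 0.19 for each of CHODL and ECM2 with NREP. With barcodes holding other types' markers left out, the r of NREP was 0.05 with TNMD, 0.09 with CHODL and 0.04 with ECM2. TNMD was found in 503 of the 624 CHODL barcodes, where 376 were expected. CRABP-I was among the 5 nearest genes of TNMD (0.51), CHODL (0.45) and ECM2 (0.44). POSTN was nearest to NREP (0.55) and among the 5 for TNMD (0.43), and COL12A1 was among those of both (0.42 for TNMD, 0.45 for NREP). In plucked day 12, CHODL had r between -0.02 and 0.04 with the other 3, over 8 positive barcodes. The other pairs were found together more often than expected: NREP with ECM2 in 42 barcodes (22.6 expected, r 0.21), NREP with TNMD in 12 (5.13 expected, r 0.21) and TNMD with ECM2 in 13 (7.76 expected, r 0.07). Without mural-marked barcodes these r were 0.31, 0.23 and 0.20. With barcodes holding other types' markers left out they were 0.44, 0.43 and 0.27. Under that setting NREP was thus more strongly correlated with ECM2 and TNMD in plucked day 12 than in skin. In the nuclei 0 of the 6 pairs reached 0.2.

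The skin library also held barcodes of the plucked type. In skin, r was 0.47 for CALB2 and HAPLN1, 0.34 for GPX3 and HAPLN1, and 0.30 for HAPLN1 and CRISPLD1. CALB2 and HAPLN1 were found together in 58 barcodes, where 11.8 were expected. HAPLN1 and TNMD were found together in 29 barcodes, where 99.3 were expected, so that 14.1% of HAPLN1 barcodes held TNMD, against 55.7% of those without HAPLN1. Even the 8 CALB1 barcodes of skin fell in this set, with GPX3 in 8 and HAPLN1 in 6 of them.

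Barcodes were then compared by HAPLN1 itself, a split chosen after the coexpression had been seen. In the 359 plucked barcodes with at least 2 HAPLN1 UMIs, CALB2 stood at 2823 CPM, GPX3 at 1244 CPM and CRISPLD1 at 735 CPM. In the 422 plucked barcodes without HAPLN1 they stood at 19.5, 112 and 84.0 CPM. In the 140 skin barcodes with at least 2 HAPLN1 UMIs, CALB2 stood at 2115 CPM, GPX3 at 540 CPM, CRISPLD1 at 177 CPM and TNMD at 21.4 CPM. In the 2092 skin barcodes without HAPLN1 the same genes stood at 9.94, 109, 21.2 and 766 CPM. In both day 12 libraries CALB2, GPX3 and CRISPLD1 were thus higher in HAPLN1 barcodes, each at a lower level in skin than in plucked feathers, and TNMD in skin was lower there.

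**Figure D5:**
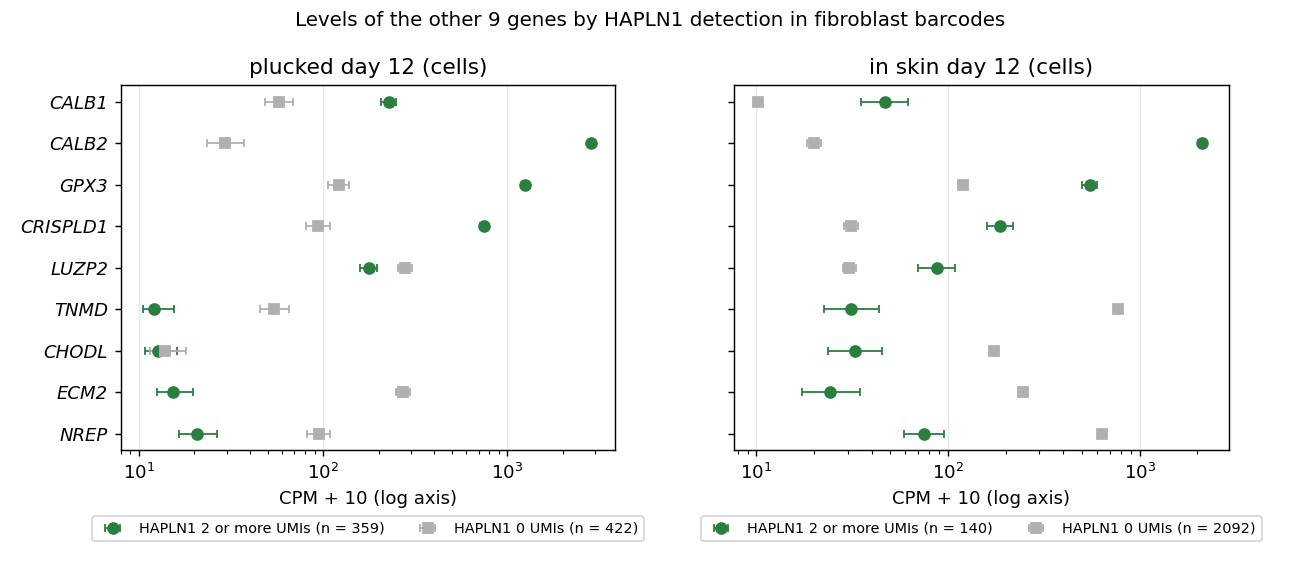
CPM + 10 (log axis) of the other 9 genes in fibroblast barcodes with at least 2 HAPLN1 UMIs (circles) and with none (squares), in plucked day 12 (left) and in skin (right); bars are Poisson 95% intervals. CALB2, GPX3 and CRISPLD1 are higher with HAPLN1 in both libraries, TNMD, ECM2 and NREP are lower, and LUZP2 is lower with HAPLN1 in plucked feathers and higher in skin.

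Other genes parted along the same split. WNT11 stood at 736 CPM with HAPLN1 and 77.9 CPM without it in plucked feathers, and at 660 and 186 CPM in skin. VCAN stood at 3722 and 772 CPM in plucked feathers and at 1480 and 270 CPM in skin. POSTN stood at 41.5 and 680 CPM in plucked feathers and at 137 and 2987 CPM in skin. NID1, a basement membrane gene with the highest log2 ratio of plucked over skin after HINTW among genes with a symbol (4.14), stood at 2458 and 638 CPM in plucked feathers and at 424 and 54.6 CPM in skin.

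Members were also counted per barcode. At least 3 of the 6 plucked-type genes and fewer than 2 of the 4 skin-type genes were found in 379 barcodes (44.4%) of plucked day 12 and in 106 (4.61%) of skin. At least 2 of the 4 and fewer than 3 of the 6 were found in 52 (6.10%) of plucked day 12 and in 1375 (59.8%) of skin. Both conditions held in 3 plucked and 13 skin barcodes. None of the 10 genes was found in 61 barcodes (7.15%) of plucked day 12 and 131 (5.70%) of skin. At day 13 the plucked-type pattern was found in 43 barcodes (9.51%) and the skin-type pattern in 16 (3.54%). At day 14 these were 25 (6.81%) and 26 (7.08%). In the shallower nuclei, 184 barcodes (40.7%) at day 13 and 128 (34.9%) at day 14 held none of the genes. The genes were chosen on the day 12 contrast, so the parting of those libraries follows from the choice.

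The nuclei carried the members at low depth. Of the 10 genes 7 passed the filter of 50 CPM in day 14 over day 13, and TNMD, CHODL and CALB1 did not. None of the 7 was at least 2-fold higher at day 14, where 2.30% of 4482 genes were, and 1 was at least 2-fold lower, where 3.53% were. That gene was HAPLN1, at 133 CPM at day 14 and 304 CPM at day 13, a log2 ratio of -1.13 (-1.49 to -0.77). The count of 1 is small. With barcodes holding other cell types' markers left out (epithelial ones not counted), 78 barcodes remained at day 14 and 122 at day 13. HAPLN1 there reversed to 0.78, and LUZP2 stood at 1.53. Under the main fibroblast rule the other genes had log2 ratios of 0.88 for ECM2, 0.57 for LUZP2 and 0.26 for NREP. Under that rule CRISPLD1 stood at -0.14, CALB2 at -0.62 and GPX3 at -0.65, beside a median of -0.11 over all genes. CRISPLD1 ran from -0.37 to 0.79 over the settings. Epithelial markers differed between the ages as well. Their summed level in fibroblast barcodes was 705 CPM at day 14 and 1904 CPM at day 13, with 11 of 12 found at each age and KRT75 at 0. Of these markers, 7 of 9 past the filter were at least 2-fold lower at day 14. Over barcodes with no GATA3 or KRT5 UMI, HAPLN1 had a log2 ratio of -1.44 and CALB2 of -1.28. The part of epithelial RNA in the result was not tested.

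The collagen threshold also moved the nuclear levels. With at least 10 collagen UMIs, 238 barcodes remained at day 14 and 140 at day 13, and CALB2 was at 9.86 and 24.0 CPM, in place of 63.3 and 102 CPM. CRISPLD1 was at 276 CPM at day 14 and 334 CPM at day 13 under that limit, in place of 508 and 562 CPM. ECM2 was at 129 and 91.4 CPM, in place of 108 and 53.9 CPM. At both ages CALB2, GPX3, HAPLN1 and CRISPLD1 were lower under the higher limit and ECM2 was higher, while LUZP2 was at 97.4 CPM at day 14 and 86.6 CPM at day 13, in place of 123 and 79.1 CPM.

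Part of the set around HAPLN1 was seen in both libraries of nuclei. HAPLN1 and CRISPLD1 had an r of 0.44 at day 13 and 0.42 at day 14, and HAPLN1 and CALB2 0.28 and 0.29. CALB2 was found in 30 barcodes at day 13 and 14 at day 14, of which 19 and 11 held HAPLN1. With at least 10 collagen UMIs the r of HAPLN1 was 0.19 and 0.18 with CALB2, and 0.36 and 0.32 with CRISPLD1. At day 13 GPX3 had an r of 0.18 with HAPLN1, 0.16 with CRISPLD1 and 0.05 with CALB2, and at day 14 of 0.27, 0.09 and 0.22. With barcodes holding other types' markers left out, HAPLN1 had an r of 0.16 with CRISPLD1 and 0.14 with CALB2 at day 13, and of 0.66 and 0.33 at day 14. Of all gene pairs 1.11% reached 0.2 at day 13 and 0.777% at day 14. At day 13 the 64 barcodes with at least 2 HAPLN1 UMIs held CRISPLD1 at 1393 CPM and CALB2 at 335 CPM, against 250 and 41.4 CPM in the 348 without HAPLN1. At day 14 the 30 barcodes with at least 2 HAPLN1 UMIs held CRISPLD1 at 1780 CPM and GPX3 at 318 CPM, against 269 and 22.5 CPM in the 325 without it. HAPLN1 barcodes of nuclei thus also held more CRISPLD1 and CALB2 or GPX3 than the rest, while CALB1, with 2 UMIs at each age, could not be read.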

How the data were processed

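The deposited values are raw UMI counts per gene and barcode, made by the authors with Cell Ranger, version 3.1.0 for cells and 7.0.0 for nuclei, per the file headers. The submitters' processing notes name Cell Ranger 7.0.0 and build GRCg6a; whether intronic reads were counted is not given in the sources used here. Barcodes under 500 UMIs, under 300 genes or over 10% mitochondrial UMIs (13 genes) were dropped, and 7 globin genes were left out of CPM. Over the mitochondrial limit were 4737 of 10952 barcodes in plucked day 12 and 3410 of 8822 in skin. A limit of 5% left 499 fibroblast barcodes in plucked day 12 and 638 in skin. The day 12 log2 ratios of TNMD and CHODL were then -3.95 and -3.21, the weakest over the settings. No doublets were removed. Log2 ratios used a pseudocount of 10 CPM, and genes needed 50 CPM in either library. Shares were taken after thinning to 1000 UMIs other than globin and mitochondrial ones, leaving out shallower barcodes. Epithelial barcodes had at least 5 UMIs of GATA3 and KRT5 and at most 2 of collagen, erythroid ones at least 50% globin UMIs, and endothelial ones at least 5 endothelial marker UMIs. With 1 library per group no test was made. Intervals (95%, Poisson or Clopper-Pearson) cover counting error only, in PCR-amplified libraries.

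The members and all gene lists were chosen with earlier results of these data known. Genes named beyond them were the 5 highest and lowest in each comparison and the 5 nearest to each member by r; some of these are not reported here. The genes set out by HAPLN1, LUZP2, ECM2, TNMD or CALB1 status were chosen after their values had been seen. All 10 members were found in the RefSeq gene table (GRCg7b), which was used for names, chromosomes and gene order; no sequences were used here. Software was Python 3.11.15, numpy 2.4.6, scipy 1.17.1, pandas 2.3.3, matplotlib 3.10.9 and, for TMM, edgeR 4.0.16 in R 4.3.3. The steps were tested on simulated data.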

Additional observations from a re-analysis of the deposited data

How the results depend on the processing

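No paired analysis was possible because each group was 1 library. The 6 higher and 3 lower members of plucked over skin kept their direction in 15 settings, 1 of them (mural-marked barcodes left out) chosen after seeing the data. The number lower was 4 at most, where ECM2 joined. All genes numbered 253 higher and 506 lower with TMM scaling and 1234 and 189 with no filter on low genes. For day 14 over day 13, members at least 2-fold higher and lower numbered 1 and 0 at a mitochondrial limit of 5%, over all UMIs and with TMM. Members higher numbered 2 at 2 or more collagen UMIs and 2 with other types' markers left out. Members lower numbered 2 with no GATA3 or KRT5 UMI, 0 with the rule applied after thinning and 0 without the deepest 10% of barcodes. The rule after thinning was another one: at least 1 collagen UMI and no GATA3 or KRT5 UMI at 1000 UMIs. It kept 1539 barcodes at day 14 and 2815 at day 13. All genes higher numbered 263 at 2 or more collagen UMIs, and 91 were lower with the rule applied after thinning. They numbered 523 higher and 800 lower with other types' markers left out, 157 and 65 over all UMIs, 156 and 245 with no filter, and 263 lower with the mean per barcode. HAPLN1 at day 14 over day 13 reversed to 0.78, and the r of ECM2 with LUZP2 in plucked day 12 to 0.015, both with other types' markers left out. Pairs of members numbered 19 in plucked day 12 and 15 in skin by an odds ratio of at least 2 at 1000 UMIs. The cause was not tested. CHODL in plucked feathers and CALB1 in nuclei rest on 12 UMIs or fewer.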
